A study of Mus musculus with 6 samples.

Results

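Opioid peptides are cut from large precursor proteins and act on receptors that couple to inhibitory G proteins. Enkephalins, from the precursor encoded by Penk, act mainly on delta and mu receptors; dynorphins, from Pdyn, on kappa receptors; nociceptin, from Pnoc, on the nociceptin receptor; and beta-endorphin, from Pomc, on mu receptors. In the striatum Penk is a marker of the projection neurons of the indirect (striatopallidal) pathway and Pdyn of those of the direct (striatonigral) pathway, while Oprm1, the mu receptor gene, marks the patches called striosomes. The members described here are the 4 precursor genes (Penk, Pdyn, Pnoc and Pomc) and the 4 receptor genes (Oprm1 for mu, Oprd1 for delta, Oprk1 for kappa and Oprl1 for nociceptin), chosen by symbol, 8 of the 47062 genes in the deposited table.

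Total RNA was sequenced from the striatum, dissected with the subventricular zone, of newborn mice (postnatal day 0) on a mix of C57BL/6J, 129S6 and CD1 strains. The 3 mutant libraries have the genotype Drd2-Cre;Sp9Flox/Flox, and the 3 control libraries came from littermates that were Sp9Flox/Flox without Cre. Sp9 encodes a zinc finger transcription factor, and Drd2-Cre expresses the recombinase from control elements of Drd2, the dopamine D2 receptor gene of indirect pathway neurons. Both groups carry the floxed alleles, and no group carried Drd2-Cre alone, so the deletion and the Cre transgene cannot be told apart. The labels do not say whether a library holds RNA of 1 animal or of several, so p-values reflect only how these libraries vary, which may be technical. Libraries held an estimated 16237067 to 19457784 fragments in genes. Sp9 itself had an FPKM (a fragment count scaled to transcript length and to library size) of 8.37, 7.93 and 9.67 in mutant replicates 1 to 3, against 20.1, 19.0 and 17.3 in control replicates 1 to 3 (log2 fold change -1.08 ± 0.09 (SE), adjusted p = 0.0567 in limma), and the deleted part of the gene is not given in the sources used here. Among markers of the indirect pathway, Drd2 averaged 44.4 ± 1.97 FPKM in the mutants and 45.0 ± 3.25 FPKM in the controls (SD, n = 3 each). Among those of the direct pathway, Tac1, the substance P precursor gene, averaged 254.2 ± 34.2 FPKM in the mutants and 255.7 ± 12.6 FPKM in the controls (SD, n = 3 each). Both were named after their values were seen, and other markers of each pathway, such as Adora2a and Drd1, differed more, as given below.

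The precursors differ in how many opioid peptides each copy of the message encodes, and the sequences of those peptides are shown because Penk and Pdyn are the precursors that differed most in level. The longest GENCODE M21 coding sequence of Penk, Pdyn and Pomc was searched for the in-frame codons of the opioid core (tyrosine, glycine, glycine, phenylalanine). The search found 7 copies in Penk, 3 in Pdyn and 1 in Pomc. That of Pnoc was searched only for the variant in which a phenylalanine codon comes first, and held 1 copy. The variant was not sought in the other precursors. Below, the 4 core codons and the codon after them are in capitals and 6 bases on either side are in lower case.
Penk copy 1: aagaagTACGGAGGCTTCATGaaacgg
Penk copy 2: aaacggTACGGAGGCTTCATGaagaag
Penk copy 3: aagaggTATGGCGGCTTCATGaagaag
Penk copy 4: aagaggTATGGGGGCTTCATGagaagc
Penk copy 5: aagcgcTACGGGGGCTTCATGagaagg
Penk copy 6: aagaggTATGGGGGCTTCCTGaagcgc
Penk copy 7: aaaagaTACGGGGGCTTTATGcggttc
Pdyn copy 1: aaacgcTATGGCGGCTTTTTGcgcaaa
Pdyn copy 2: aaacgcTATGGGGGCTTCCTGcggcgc
Pdyn copy 3: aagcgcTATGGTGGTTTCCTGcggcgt
Pomc copy 1: aagcgtTACGGTGGCTTCATGacctcc
Pnoc copy 1: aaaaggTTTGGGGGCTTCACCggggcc
In Penk the last codon in capitals is that of methionine in 6 copies and of leucine in 1 (copy 6), which are the codons of Met-enkephalin and Leu-enkephalin. All 3 copies in Pdyn end with a leucine codon. Each of the 12 copies follows a pair of codons for basic residues, the kind of site that prohormone convertases cut, and 5 of 7 in Penk and 3 of 3 in Pdyn are also followed by such a pair. On GRCm38 the Penk copies lie in exon 2 of 2, with copy 1 at chr4:4134334-4134348 and copy 7 at chr4:4133848-4133862 on the minus strand. The Pdyn copies lie in exon 4 of 4, with copy 1 at chr2:129688238-129688252 and copy 3 at chr2:129688073-129688087, also on the minus strand.

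The comparison of mutant with control asks how expression in the newborn striatum differs when the deletion of Sp9 is aimed at Drd2-expressing cells. Penk was the member with the largest difference, lower in all 3 mutant libraries than in any control, and Pdyn differed in the other direction. Oprd1 was low in both groups and lower in the mutants, and the remaining 5 members had groups that overlapped. All 8 members passed the filter on low values (a mean of at least 0.5 FPKM), and none passed an adjusted p of 0.05 in limma, a threshold that 0.0600% of the 16666 genes tested passed. At an unadjusted p under 0.05 there were 3 members (Penk, Pdyn and Oprd1), 1 higher and 2 lower in the mutants, where 5.65% of all genes tested reached that level, 2.65% higher and 2.99% lower. The groups did not overlap in those same 3 members, and in 11.4% of all genes tested (5.33% higher and 6.05% lower in the mutants). The median log2 fold change was -0.018 over the 8 members and -0.00016 over all genes tested.

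**Figure D1:**
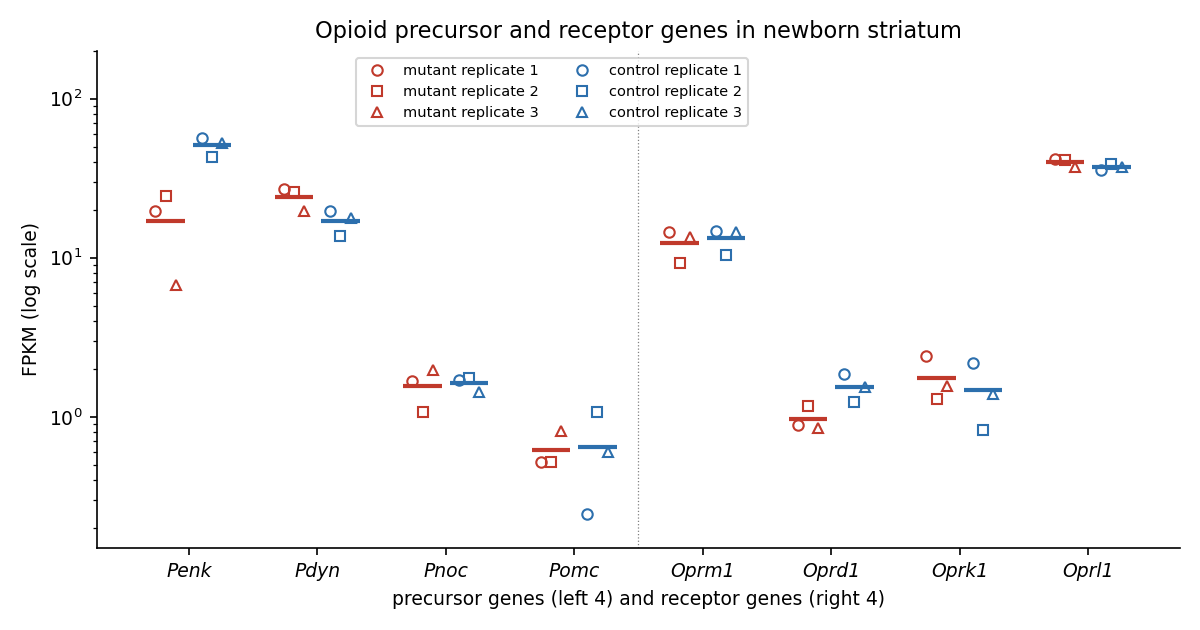
FPKM (log axis) of the 4 precursor and 4 receptor genes in each library, with mutant libraries in red to the left of control libraries in blue, markers by replicate number and bars at the group means. Penk runs from 6.78 to 24.3 in the mutants and from 43.0 to 57.0 in the controls, and the other members differ less between groups.

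Among the precursors, Penk (ENSMUSG00000045573; GRCm38 chr4:4133531-4138819, minus strand) had an FPKM of 19.7, 24.3 and 6.78 in mutant replicates 1 to 3, against 57.0, 43.0 and 52.5 in control replicates 1 to 3. Mutant replicate 3 stood well below the other 2 mutants, and no mutant came near the lowest control. The means were 16.9 ± 9.08 FPKM in the mutants and 50.8 ± 7.15 FPKM in the controls (SD, n = 3 each). The log2 fold change on the log2(FPKM + 0.5) scale was -1.73 ± 0.47 (SE; 95% interval -2.89 to -0.56), a 3.31-fold lower level. In limma the unadjusted p was 0.0113 and the adjusted p 0.763, and an exact permutation over the 6 libraries (two-sided) gave 0.1, its minimum for groups of 3. Between 136 and 1105 fragments stood behind each value, so counting error was small beside the spread among the mutants. Without mutant replicate 3 the log2 fold change was -1.19, with an unadjusted p of 0.000852 and an adjusted p of 0.321 in limma. In bulk tissue, fewer Penk-expressing cells and less Penk RNA per cell cannot be told apart.

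The start of Penk shares 499 bases with A830012C17Rik, a noncoding gene on the opposite strand. The use of strand in counting is not given in the sources used here, so fragments of the pair cannot be told apart in that stretch. A830012C17Rik, named after its values were seen, had an FPKM of 0.300, 0.381 and 0.199 in mutant replicates 1 to 3, against 1.01, 0.537 and 0.740 in control replicates 1 to 3. Its replicates kept the same order as those of Penk in each group, highest in mutant replicate 2 and control replicate 1. Of all genes tested, 19.8% had that order in the mutants and 21.4% in the controls. These values rested on 4 to 22 fragments. The log2 fold change was -0.66, with an unadjusted p of 0.0207 and an adjusted p of 0.7996 in limma.

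Pdyn (ENSMUSG00000027400; chr2:129686565-129699844, minus strand) had an FPKM of 27.1, 25.9 and 19.7 in mutant replicates 1 to 3, against 19.6, 13.7 and 17.6 in control replicates 1 to 3. The groups were separated only narrowly, since mutant replicate 3 and control replicate 1 nearly met. The means were 24.2 ± 3.96 FPKM in the mutants and 17.0 ± 2.99 FPKM in the controls (SD, n = 3 each). Pdyn had a log2 fold change of 0.50 ± 0.17 (SE; 95% interval 0.07 to 0.94), 1.42-fold. In limma the unadjusted p was 0.0293 and the adjusted p 0.854, and the exact permutation gave 0.1 (two-sided). The unadjusted p exceeded 0.05 without mutant replicate 1 (0.0880), mutant replicate 2 (0.0851), control replicate 2 (0.0723) or control replicate 3 (0.0542).

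The balance of the enkephalin and dynorphin precursors had opposite directions in the groups, though mutant replicate 2 was near equal levels. The ratio of Penk to Pdyn FPKM was 0.725, 0.938 and 0.344 in mutant replicates 1 to 3, against 2.91, 3.14 and 2.97 in control replicates 1 to 3. Every mutant thus had more Pdyn than Penk per length and every control more Penk than Pdyn. In mutant replicate 2 the gap was small, at 24.3 FPKM of Penk from 539 fragments and 25.9 FPKM of Pdyn from 1046. Whether that gap exceeds counting error was not tested. The ratio was nearly constant among the controls although both genes varied there, with control replicate 1 highest and control replicate 2 lowest in each. In log2 units the difference Penk minus Pdyn was -0.67 ± 0.72 in the mutants and 1.56 ± 0.05 in the controls (SD, n = 3 each), a shift of -2.23, which has no test because the members were chosen with earlier results known. Without mutant replicate 3 the shift was -1.83.

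**Figure D2:**
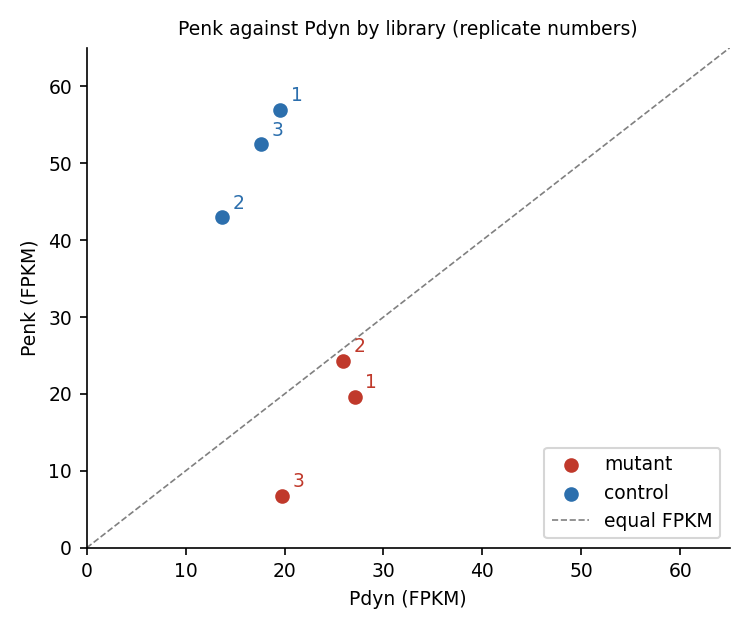
Penk FPKM (vertical) against Pdyn FPKM (horizontal) in the 3 mutant (red) and 3 control (blue) libraries, numbered by replicate, with a dashed line at equal FPKM. The mutants lie below the line at Penk to Pdyn ratios of 0.344 to 0.938 and the controls above it at 2.91 to 3.14.

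Pnoc (ENSMUSG00000045731; chr14:65400673-65425472, minus strand), the nociceptin precursor gene, had an FPKM of 1.68, 1.08 and 1.96 in mutant replicates 1 to 3, against 1.70, 1.75 and 1.44 in control replicates 1 to 3. The mutants spanned the controls. Its log2 fold change was -0.060 (95% interval -0.55 to 0.43; adjusted p = 0.984, limma), and 43 to 67 fragments stood behind each value.

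Pomc (ENSMUSG00000020660; chr12:3954951-3960642, plus strand), the precursor gene of beta-endorphin and of melanocortins, whose best known sites are the pituitary and the hypothalamus, was close to the filter. It had an FPKM of 0.520, 0.519 and 0.808 in mutant replicates 1 to 3, against 0.244, 1.08 and 0.602 in control replicates 1 to 3. The controls held both the lowest and the highest library. Those 2 libraries rested on an estimated 4 and 18 fragments, with exact 95% Poisson intervals of 1.09 to 10.2 and 10.7 to 28.4 that cover counting error only. Pomc had a log2 fold change of 0.024 (95% interval -0.75 to 0.79; adjusted p = 0.999, limma), and no difference was detectable at this depth. Of 11 genes of the hypothalamus and pituitary, 1 passed the filter on low values (Trh, 1.38 to 2.40 FPKM), and Prl, the pituitary hormone prolactin, was listed at 0 in every library. The summed FPKM of that list ran from 1.95 to 3.57 in the mutants and from 2.64 to 2.92 in the controls.

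Among the receptors, Oprl1 (ENSMUSG00000027584; chr2:181715016-181720985, plus strand), which binds nociceptin, was the most abundant. Its FPKM was 41.8, 41.4 and 36.9 in mutant replicates 1 to 3, against 35.8, 38.6 and 37.2 in control replicates 1 to 3. Mutant replicate 3 lay within the controls. The log2 fold change was 0.10 ± 0.06 (SE; 95% interval -0.05 to 0.26), the narrowest interval of the 8 members, and the adjusted p was 0.888 in limma. The unadjusted p was 0.153, and 0.0239 without mutant replicate 3, where the log2 fold change was 0.16.

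Oprm1 (ENSMUSG00000000766; chr10:6758506-7038198, plus strand), the mu receptor gene, had an FPKM of 14.5, 9.28 and 13.6 in mutant replicates 1 to 3, against 14.8, 10.4 and 14.5 in control replicates 1 to 3. Replicate 2 was the lowest library of each group, and the groups overlapped. Oprm1 had a log2 fold change of -0.095 (95% interval -0.62 to 0.43; adjusted p = 0.968, limma). The gene overlaps Ipcef1 on the opposite strand, which had 3.93 to 5.10 FPKM in the mutants and 3.96 to 4.38 in the controls. Of 6 striosome markers other than Oprm1 and Pdyn, none reached an unadjusted p of 0.05, and their median log2 fold change was -0.13.

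Oprk1 (ENSMUSG00000025905; chr1:5588466-5606131, plus strand), the kappa receptor gene, had an FPKM of 2.41, 1.29 and 1.56 in mutant replicates 1 to 3, against 2.18, 0.828 and 1.39 in control replicates 1 to 3. Here too replicate 1 was highest and replicate 2 lowest in both groups, and the spread within each group exceeded the difference between them. Its log2 fold change was 0.22 (95% interval -0.56 to 1.01; adjusted p = 0.945, limma).

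Oprd1 (ENSMUSG00000050511; chr4:132110726-132144486, minus strand), the delta receptor gene, had an FPKM of 0.891, 1.16 and 0.849 in mutant replicates 1 to 3, against 1.85, 1.24 and 1.53 in control replicates 1 to 3. Every mutant lay below every control, though mutant replicate 2 and control replicate 2 were close. The means were 0.968 ± 0.171 FPKM in the mutants and 1.54 ± 0.305 FPKM in the controls (SD, n = 3 each), from 54 to 129 fragments a library. The log2 fold change was -0.47 ± 0.17 (SE; 95% interval -0.89 to -0.05). On the log2(FPKM + 0.5) scale the change of such a low gene is understated, and with a pseudocount of 0.1 the log2 fold change was -0.61. In limma the unadjusted p was 0.0346 and the adjusted p 0.858, and the exact permutation gave 0.1 (two-sided). The unadjusted p exceeded 0.05 without mutant replicate 1 (0.0910), mutant replicate 3 (0.0905), control replicate 1 (0.1001) or control replicate 3 (0.0792). It also exceeded 0.05 with the replicate block (0.0880) and at a mean FPKM of at least 1 (0.0544).

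**Figure D3:**
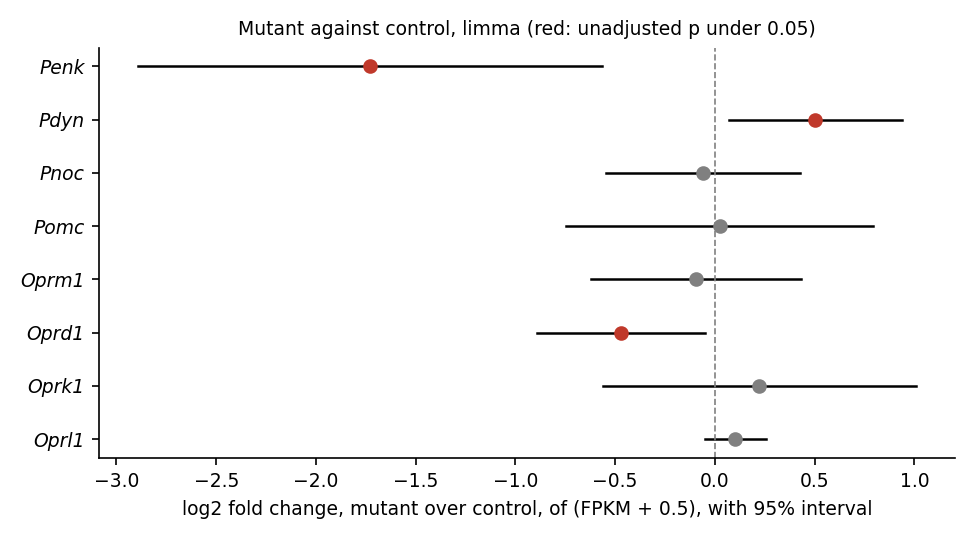
Log2 fold change of mutant over control for each member, from limma on log2(FPKM + 0.5), with 95% intervals, and red points where the unadjusted p was under 0.05. Penk (-1.73) and Oprd1 (-0.47) lie below 0, Pdyn (0.50) lies above it, and the other 5 intervals include 0.

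Ordered by mean FPKM, which is scaled to transcript length, the mutants had Oprl1 (40.0), Pdyn (24.2), Penk (16.9), Oprm1 (12.4), Oprk1 (1.75), Pnoc (1.57), Oprd1 (0.968) and Pomc (0.616). In that order the ranges of Pdyn and Penk, Penk and Oprm1, Oprk1 and Pnoc, and Pnoc and Oprd1 overlapped. The controls had Penk (50.8), Oprl1 (37.2), Pdyn (17.0), Oprm1 (13.3), Pnoc (1.63), Oprd1 (1.54), Oprk1 (1.47) and Pomc (0.641). There the ranges of Pdyn and Oprm1 overlapped, as did those of each neighbouring pair from Pnoc to Pomc. Penk was thus the most abundant member in the controls, and came behind Oprl1 and Pdyn in the mutants.

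Penk was next set beside 9 other genes of indirect pathway neurons, of which Adora2a, an adenosine receptor gene, and Grik3, a kainate receptor gene, fell past an adjusted p of 0.05 in limma (0.00852 and 0.0156). Both calls were lost with the replicate number as a block (adjusted p = 0.220 for Adora2a and 0.180 for Grik3) and without control replicate 2 (0.0558 and 0.0740). That of Grik3 was also lost without mutant replicate 1 (0.0518) or control replicate 3 (0.0538). At an unadjusted p under 0.05, 7 of the 9 were lower and none was higher (5.65% of all genes tested, 2.99% lower), and the median log2 fold change was -1.08. This list was drawn up with earlier results of these data known, and it holds Sp9 itself. As a percentage of its control mean, Penk stood at 38.7, 47.9 and 13.4% in mutant replicates 1 to 3. Adora2a stood at 8.92, 12.1 and 6.83%, and the purinergic receptor gene P2ry1 at 22.4, 31.1 and 14.7%. Both were lowest in mutant replicate 3, as Penk was. The phosphatase gene Ptprm stood at 49.6, 54.2 and 40.2%, Gpr6 at 46.8, 33.6 and 38.1%, and Grik3 at 45.5, 40.3 and 45.2%. Drd2, whose control elements drive Cre, stood at 100.3, 102.0 and 93.7%. The order of the mutant libraries in Penk (replicate 2, then 1, then 3) was shared by 4 of the 9 indirect markers, 5 of the 10 direct markers and 19.8% of all genes tested, and 5 of the 9 indirect markers (Gpr6, Grik3, Nt5e, Six3 and Sp9) had another order.

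Among 10 markers of direct pathway neurons other than Pdyn, none passed the adjusted threshold in limma. At an unadjusted p under 0.05 the mutants were higher in 3 (Drd1, Sfxn1 and Tmem158) and lower in 1 (Isl1), where 2.65% of all genes tested were higher and 2.99% lower, and the median log2 fold change was 0.25. The direct list, too, was drawn up with earlier results of these data known. The dopamine D1 receptor gene Drd1 had 37.7, 42.7 and 37.6 FPKM in mutant replicates 1 to 3, against 27.0, 18.8 and 25.3 FPKM in control replicates 1 to 3 (unadjusted p = 0.00260, adjusted p = 0.566). Every mutant lay above every control in Drd1.

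**Figure D4:**
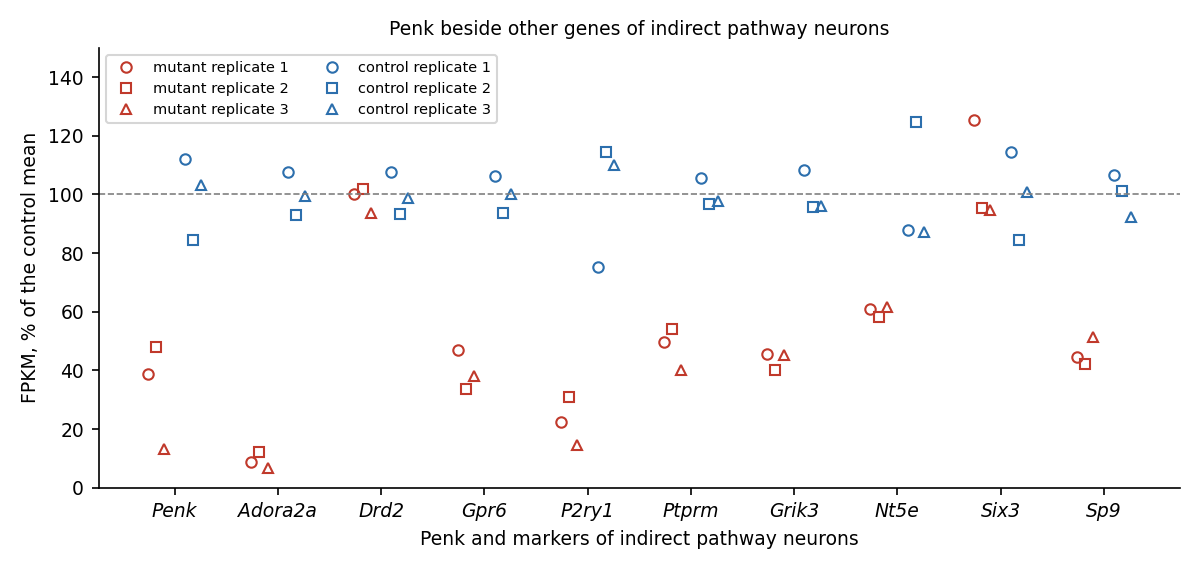
FPKM of Penk and of 9 markers of indirect pathway neurons in each library, as a percentage of the mean of the 3 controls, with mutants (red) to the left of controls (blue). Penk spans 13.4 to 47.9% in the mutants, Adora2a 6.83 to 12.1%, and Drd2 93.7 to 102.0%.

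Markers of other cells were read beside Penk because mutant replicate 3 stood apart in it. The summed FPKM of 7 cortical glutamatergic genes was 34.5, 8.20 and 54.5 in mutant replicates 1 to 3, against 19.7, 22.2 and 7.17 in control replicates 1 to 3. Among the mutants the library with the most cortical signal thus had the least Penk, and that with the least cortical signal had the most. The controls kept this only in part. Control replicate 2 had the most cortical signal and the least Penk. Control replicate 3 had the least cortical signal but not the most Penk (52.5 FPKM, against 57.0 in control replicate 1). All 7 cortical genes were above 0 in every library, none of the 5 tested reached an unadjusted p of 0.05, and their part in the Penk values was not tested. The summed FPKM of 8 interneuron markers ran from 409.2 to 495.2 in the mutants and from 317.6 to 432.1 in the controls, with 2 of the 8 (Nxph1 and Lhx8) higher at an unadjusted p under 0.05 (2.65% of all genes tested). That of 6 olfactory bulb markers ran from 38.5 to 44.3 in the mutants and from 28.9 to 43.3 in the controls. Within that list mutant replicate 3 stood apart in Pax6, at 2.29, 1.54 and 8.46 FPKM in mutant replicates 1 to 3, and in Sp8, at 1.24, 0.620 and 3.10 FPKM. The controls had 1.58 to 3.27 FPKM of Pax6 and 0.659 to 1.13 FPKM of Sp8. Th, Calb2 and Prokr2 of the same list were instead lowest of the mutants in replicate 3, at 3.67, 1.32 and 8.77 FPKM. Tshz1 of that library lay between the other mutants, at 19.0 FPKM. The summed FPKM of 5 oligodendrocyte lineage genes was 56.8, 60.3 and 80.1 in mutant replicates 1 to 3, against 78.7, 65.7 and 58.6 in control replicates 1 to 3. Mutant replicate 3 was the highest mutant in that sum and the lowest in Penk. Control replicate 1 was instead the highest control in both. The part of these genes in the Penk values was not tested. The sums of 5 microglia, 5 astrocyte, 4 vessel and 5 matrix genes overlapped between the groups, with no member at an unadjusted p under 0.05.

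The genes that make, remove and respond to opioid peptides were counted next. No gene of the lists of precursor processing, peptide breakdown and receptor signalling passed an adjusted p of 0.05 in limma. Of 15 genes for precursor processing and packaging, all tested, 1 was lower and none higher at an unadjusted p under 0.05 (5.65% of all genes tested), with a median log2 fold change of -0.0050. It was Pcsk2, a prohormone convertase that cuts both enkephalin and dynorphin precursors, with 47.0, 40.2 and 40.3 FPKM in mutant replicates 1 to 3, against 58.3, 45.3 and 56.8 FPKM in control replicates 1 to 3 (adjusted p = 0.858). The mutant and control ranges of Pcsk2 overlapped. Rnpep, an aminopeptidase that trims basic residues, had 18.2 to 25.9 FPKM in the mutants and 25.4 to 30.9 in the controls (unadjusted p = 0.0815). Pcsk1, the other main neuroendocrine convertase, was low, at 0.710 to 1.10 FPKM in the mutants and 0.513 to 0.703 in the controls (unadjusted p = 0.134). Cpe, the carboxypeptidase that removes the basic residues, had 254.6 to 309.7 in the mutants and 256.4 to 320.2 in the controls.

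Of 11 peptidases that break down opioid peptides, all tested, 1 was lower and none higher at an unadjusted p under 0.05 (5.65% of all genes tested), a share near that of all genes, with a median log2 fold change of -0.0019. It was Mme, which encodes neprilysin, also called enkephalinase, with 7.17, 5.40 and 6.34 FPKM in mutant replicates 1 to 3, against 8.25, 8.06 and 7.49 FPKM in control replicates 1 to 3 (log2 fold change -0.32, adjusted p = 0.858, limma). Every mutant lay below every control. Ide, the insulin-degrading enzyme, had 16.3, 9.68 and 15.6 FPKM in the mutants and 10.3, 8.75 and 10.8 in the controls (unadjusted p = 0.0908). Ece1, the low grey point among the breakdown genes in the plot of lists, had a log2 fold change of -0.88 (unadjusted p = 0.257) that came from control replicate 1 alone, at 62.1 FPKM against 10.5 and 10.7 in the other controls and 9.61 to 10.9 in the mutants. Npepps, the puromycin-sensitive aminopeptidase, had the highest FPKM of the 11 in each library, at 74.9 to 78.1 in the mutants and 73.5 to 83.4 in the controls.

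Of 20 genes that couple or desensitise the receptors, 17 passed the filter. At an unadjusted p under 0.05, Grk3 and Kcnj3 were higher and Gnao1 was lower, 3 of the 17 where 5.65% of all genes tested reached that level, with a median log2 fold change of 0.022. Gnao1, the G protein alpha subunit most abundant in neurons, had 316.8, 329.5 and 313.2 FPKM in mutant replicates 1 to 3, against 345.8, 351.4 and 364.0 FPKM in control replicates 1 to 3 (log2 fold change -0.14, adjusted p = 0.781, limma). Kcnj3, a subunit of the potassium channel that these receptors open, had 1.09, 1.05 and 1.29 FPKM in the mutants and 0.943, 0.579 and 0.490 in the controls (adjusted p = 0.858). Its groups did not overlap, at a low level. Grk3, a kinase that desensitises receptors, had 8.09, 9.81 and 9.57 FPKM in the mutants and 8.13, 6.15 and 6.62 in the controls (adjusted p = 0.847), with overlap between mutant replicate 1 and control replicate 1.

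Of 12 transcription regulators tied to these precursor genes or to their cells, 5 were lower and none higher at an unadjusted p under 0.05 (5.65% of all genes tested, 2.99% lower). Their median log2 fold change was -0.22, and 11 of 12 estimates lay below 0. Sp9 is among the 5, and the choice of this list too was made with earlier results known. Foxp1, a transcription factor gene of striatal projection neurons, had 263.3, 248.4 and 264.7 FPKM in mutant replicates 1 to 3, against 322.3, 327.9 and 343.5 FPKM in control replicates 1 to 3 (log2 fold change -0.36, adjusted p = 0.218, limma). Isl1, a factor of direct pathway neurons, had 55.9, 53.3 and 54.9 FPKM in the mutants and 63.1, 61.6 and 68.4 in the controls (adjusted p = 0.654). The activity-regulated genes Fos and Nr4a1 were the rest of the 5. Fos had 1.88 to 2.83 FPKM in the mutants and 3.06 to 6.36 in the controls, without overlap. Nr4a1 had 8.51 to 10.1 FPKM in the mutants and 9.98 to 16.6 in the controls, with overlap. Both were highest in control replicate 1. Creb1, which encodes a factor that binds the cAMP response elements of Penk and Pdyn, had 19.5 to 23.1 FPKM in the mutants and 20.3 to 23.7 in the controls. Kcnip3, which encodes DREAM, a repressor of the human PDYN gene, had 4.17 to 4.88 FPKM in the mutants and 3.83 to 4.75 in the controls.

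**Figure D5:**
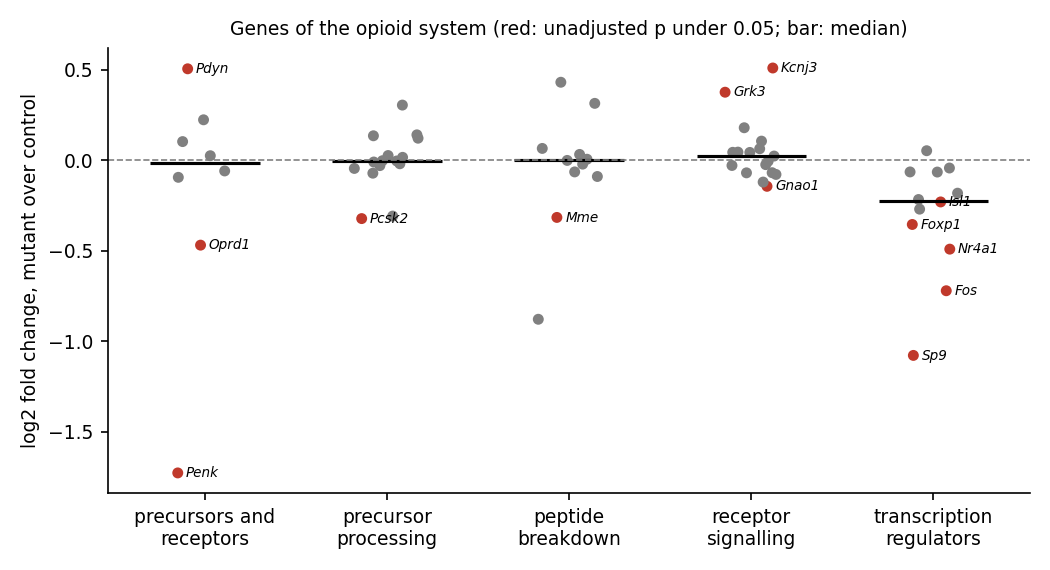
Log2 fold change of mutant over control for each tested gene of 5 lists, with red points and names where the unadjusted p was under 0.05 and bars at the list medians. The medians of precursors and receptors (-0.018), processing (-0.0050), breakdown (-0.0019) and signalling (0.022) lie near 0, and that of the transcription regulators is -0.22.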

How the data were processed

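The authors' deposited table lists Ensembl genes with FPKM and count columns for 6 libraries, per the file headers. TopHat and Cufflinks 2.1.1 are named as tools and GRCm38.p4 as build, per the submitters' processing notes. How strand and multiple hits were handled is not given in the sources used here. As they are not whole, the deposited counts were used as a signal (scaled counts): estimated fragments times 1 factor per library, as 98.4 to 98.6% of values from 0.01 up to 100 steps were within 0.1 of whole multiples of the commonest low value. No count test was run. GENCODE M21 gave symbols for 46483 identifiers, positions and coding sequences.

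limma 3.58.1 (R 4.3.3) with a variance trend was fitted to log2(FPKM + 0.5) over all 6 libraries, two-sided. The 16666 genes whose mean FPKM reached 0.5 were tested, with Benjamini-Hochberg adjustment over all of them. The fit was also run on simulated data with little variation between libraries beyond counting error. Penk varied more than that among the mutants, so the simulation does not give the power for these data. The labels do not say whether libraries with the same replicate number form pairs. Named genes are the members, Sp9, up to 4 genes per list with the smallest p beside any that passed, and the 3 genes most alike each member with a mean FPKM of at least 5. Drd2, Nt5e, Six3, Prl, Cpe, Npepps, Creb1, Kcnip3, Tac1, Ece1, Fos, Prokr2, Tshz1 and the genes that overlap members were named after their values were seen. Members and lists were chosen with earlier results of these data known. Intervals on fragments cover counting error only. Alternatives were other pseudocounts, filters and scalings, robust limma, a replicate block, the scaled counts and each library left out.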

Additional observations from a re-analysis of the deposited data

How the results depend on the processing

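No member passed an adjusted p of 0.05 in limma under any of the 16 alternatives, and Penk, Pdyn, Oprd1 and Oprl1 kept their direction in each. With 1 library left out the log2 fold change of Penk ran from -2.07 to -1.19 and that of Pdyn from 0.36 to 0.64, and the shift of Penk minus Pdyn from -2.52 to -1.83. Over all alternatives the adjusted p of Penk ran from 0.249 (scaled counts) to 0.999 and that of Pdyn from 0.575 to 0.999. Members with an unadjusted p under 0.05 in limma numbered 1 to 3 with 1 library left out. In those fits the genes at that level ran from 616 of 16622 tested to 1228 of 16637, against 941 of 16666 in the main fit. Only Penk was left without mutant replicate 1 (740 of 16625 genes) or control replicate 3 (616 of 16622). Genes past the adjusted threshold numbered 10 in all, 5 with the replicate block, 23 on scaled counts, and between 12 and 23 when a library was dropped (18 without mutant replicate 1 or 2, 23 without mutant replicate 3, 19 and 20 without control replicate 1 and 3). The labels give no pairing, so the replicate block is not known to be a paired analysis. Deviations of same-numbered libraries correlated by 0.0025, 0.037 and 0.043 over genes, which cannot exclude a pairing that shows in few genes. Members with estimates near 0 changed sign: Pomc with quantile normalization (-0.018) and with 1 library left out (-0.25 to 0.29), Pnoc (-0.19 to 0.12), Oprm1 (-0.25 to 0.095) and Oprk1 (-0.032 to 0.47), where the cause was not tested. Pomc was not tested at a mean FPKM of at least 1, and edgeR and DESeq2 were not run because the count columns are not whole. The filter on a mean scaled count of at least 10 was chosen after seeing the data. Pomc rested on the fewest fragments of the 8 members, 4 to 18 a library.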

Other observations

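The high FPKM of the peptidase gene Ece1 in control replicate 1 (62.1) was absent from its scaled counts, at 858.3, 805.9 and 797.6 in the mutants and 860.6, 842.5 and 881.7 in the controls. On scaled counts the log2 fold change was -1.69 for Penk, 0.50 for Pdyn and -0.66 for Oprd1, with adjusted p of 0.249, 0.575 and 0.481 in limma.

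In 5 of the 8 members (Penk, Pdyn, Oprm1, Oprd1 and Oprk1) the control libraries had the order replicate 1, then 3, then 2, an order that 21.4% of all genes tested had. Oprm1 and Oprk1 had that order among the mutants as well, and the share of all genes with it in both groups was not counted. With the replicate block the SE fell from 0.21 to 0.058 for Oprm1 and from 0.32 to 0.14 for Oprk1. Their unadjusted p was then 0.181 and 0.204 in limma. The SE rose with the block for Pnoc and Oprd1.

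By Pearson's r of log2(FPKM + 0.5) over the 6 libraries, as a description over 9199 other genes whose mean FPKM reached 5, the patterns most like that of Penk were those of Chrnb2 (0.996), Prune1 (0.992) and Rnf4 (0.990). Their differences were small, with Chrnb2 at 19.6 ± 0.377 FPKM in the mutants and 20.4 ± 0.116 in the controls (SD, n = 3 each). For Pdyn they were Hdac4 (0.988), Cpt1c (0.986) and Endod1 (0.984), for Oprm1 Tmem259 (0.979), Tmem107 (0.979) and Tsta3 (0.978), and for Oprl1 Psmd12 (0.990), Terf2ip (0.987) and Ociad2 (0.985). All points share the same 6 libraries, so no p is given.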
